A study of Saccharomyces cerevisiae with 18 samples.

Results

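The 10 genes described here encode transcription factors that drive or shape the yeast stress response, and they were chosen by name from the 6746 features of a Saccharomyces cerevisiae count table. They are the heat shock factor gene HSF1 (YGL073W), the general stress factor genes MSN2 (YMR037C) and MSN4 (YKL062W), and the osmotic stress factor genes HOT1 (YMR172W), SKO1 (YNL167C) and SMP1 (YBR182C). The others are the oxidative stress factor gene YAP1 (YML007W), the nutrient and stationary phase factor gene GIS1 (YDR096W), and the bZIP (basic leucine zipper) factor genes CIN5 (YOR028C) and YAP6 (YDR259C). All 10 passed the filter on low counts. Poly(A) RNA was sequenced from cells carrying an unchanged histone H2A (WT) and from cells in which alanine replaces serine in H2A (S121A). Each genotype was taken in log phase in YPD at 30 °C without stress, after 15 min in 0.4 M NaCl, and after 10 min at 39 °C, with 3 libraries in each of the 6 groups. Both strains derive from FY406, a MATa strain. Its chromosomal hta1-htb1 and hta2-htb2 pairs are replaced by LEU2 and TRP1, and it carries the alleles his3delta200, leu2delta1, ura3-52, trp1delta63 and lys2-128delta. In every group the only HTA1-HTB1 copy in the genotype label is on a plasmid, either unchanged or S121A. The label of that plasmid ends in HIS3, HIS4 or HIS5 for replicates 1, 2 and 3.

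Several of these factors act mostly through changes in the protein and less through its amount. Hsf1 binds heat shock elements and is released from chaperones on heating, Msn2 and Msn4 are paralogous zinc finger proteins that enter the nucleus when protein kinase A activity falls and bind the stress response element, and the kinase Hog1 acts on Hot1, Sko1 and Smp1 under high salt. Sko1 is also a repressor that works with the Cyc8-Tup1 complex, Yap1 is held in the nucleus under oxidative stress, Gis1 acts downstream of the kinase Rim15, and Cin5 (also called Yap4) and Yap6 are paralogs linked to salt tolerance. The libraries measure the messenger RNA of these factors and not their location, modification or DNA binding.

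The stretch upstream of CIN5 is shown because CIN5 had the largest stress response of the 10 genes. CIN5 (YOR028C) lies on the minus strand of chromosome XV at 383533 to 384420 (R64), in 1 coding exon of 295 codons. The 300 bases shown are chrXV:384680-384979 on the minus strand, read 5′ to 3′, and run from 559 to 260 bases before the start codon. Capitals mark a match to the Yap recognition motif TTACTAA (here on the opposite strand) 509 bases before the start codon and a match to the stress response element AGGGG 429 bases before it, distances being counted to the base of the match nearest the gene. Only 179 bases separate CIN5 from the neighbouring gene YOR029W, so this stretch lies inside or beyond that gene.
CIN5: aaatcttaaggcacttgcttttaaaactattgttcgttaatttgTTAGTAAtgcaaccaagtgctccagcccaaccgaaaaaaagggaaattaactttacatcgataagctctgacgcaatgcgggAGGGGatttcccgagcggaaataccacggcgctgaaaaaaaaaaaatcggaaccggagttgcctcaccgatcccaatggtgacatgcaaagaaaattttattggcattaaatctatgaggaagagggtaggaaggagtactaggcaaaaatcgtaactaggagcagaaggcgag

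The next sequences show the stress response element matches before MSN2 and GIS1, which had the next largest NaCl responses, and the Yap motif matches before SMP1. They are written 5′ to 3′ on the strand of the gene, with the match in capitals and 12 bases on each side, at chrXIII:347002-347030, chrIV:636801-636829, chrII:595193-595223 and chrII:595305-595336 (R64).
MSN2: tatatacaatttCCCCTctacagacaaca
GIS1: aagaaaacctccCCCCTcctcctcccgcc
SMP1: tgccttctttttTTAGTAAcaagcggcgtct
SMP1: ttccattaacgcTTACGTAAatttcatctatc

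The stress response element AGGGG was found on either strand within 600 bases before the start codon in 6 of the 10 genes, and in 39.7% of all 5999 such windows. The 6 genes were MSN2 at 497 bases before the start codon, SKO1 at 217, YAP1 at 99, GIS1 at 322, CIN5 at 429 and YAP6 at 522. The Yap motif TTACTAA was found before CIN5 and before SMP1, at 341 bases, and in 13.7% of all windows. Its variant TTACGTAA was found before SMP1 at 453 bases and in 1.6% of all windows. The heat shock element of 3 alternating repeats, the Gis1 motif TTAGGGAT, the motif TGACGTCA bound by Sko1 and the motif GGGACAAA bound by Hot1 were found in 0 of the 10 windows. Those 4 motifs were present in 1.7%, 1.03%, 0.283% and 1.78% of all windows. The motifs do not overlap each other in the windows of the 10 genes.

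Libraries held 39.6 to 53.03 M (mega) counts. Levels are in CPM, the count relative to the TMM-scaled library total. On library totals without that scaling, 3 counts equal 0.0566 to 0.0758 CPM. On these unscaled totals, marker genes of MATa cells summed to between 366 and 3116 CPM per library, and markers of MATalpha cells to between 5.55 and 17.7 CPM. Of the 3 MATalpha markers, 2 were higher in S121A than in WT without stress and 3 under each stress. Of the 5 MATa markers, 0 were higher and 5 lower without stress (median log2 difference -0.35, with 1 lower on library totals), 1 higher and 1 lower under NaCl, and 3 higher and 0 lower under heat. The part of these markers in the genotype results was not tested. The altered H2A codon cannot be seen in gene counts, so the genotype labels were not checked by it. Replicate 1 stood apart from replicates 2 and 3 under NaCl in both genotypes. The chi-square per degree of freedom between 2 replicates was 74.2 and 120.6 for pairs with replicate 1 in WT and 26.0 for the other pair, and 50.2 and 39.8 against 8.49 in S121A. After heating, replicate 1 stood apart in WT, at 69.5 and 52.5 against 22.8. In heated S121A replicate 3 did, at 55.8 and 83.9 against 24.1. These heated libraries were left out only 1 at a time. The labels do not say that replicates came from separate cultures, so p-values measure the spread between these libraries, which may be technical.

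Without stress the WT levels of the 10 genes covered an order of magnitude per length. Per kilobase of coding sequence, YAP1 stood at 38.5 ± 0.815, MSN4 at 37.2 ± 2.06, MSN2 at 31.0 ± 1.41, SKO1 at 26.1 ± 0.354 and CIN5 at 20.5 ± 1.13 CPM (SD, n = 3). GIS1 stood at 15.2 ± 0.142, HSF1 at 14.2 ± 1.1, HOT1 at 9.08 ± 0.431, SMP1 at 8.32 ± 0.400 and YAP6 at 3.67 ± 0.231 CPM per kilobase. Thus the general stress and oxidative stress factors were the most abundant of the 10 as messenger RNA, and YAP6 the least. Under NaCl the order changed, with CIN5 highest at 325 ± 5.37 CPM per kilobase in WT, followed by MSN2 at 90.3 ± 17.0 and GIS1 at 72.6 ± 16.7. Across all 6 groups the ratio of the highest to the lowest group mean was 18.2 for CIN5, 4.78 for GIS1 and 3.21 for MSN2, and between 1.26 and 2.77 for the other 7 genes, with YAP1 the steadiest.

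**Figure D1:**
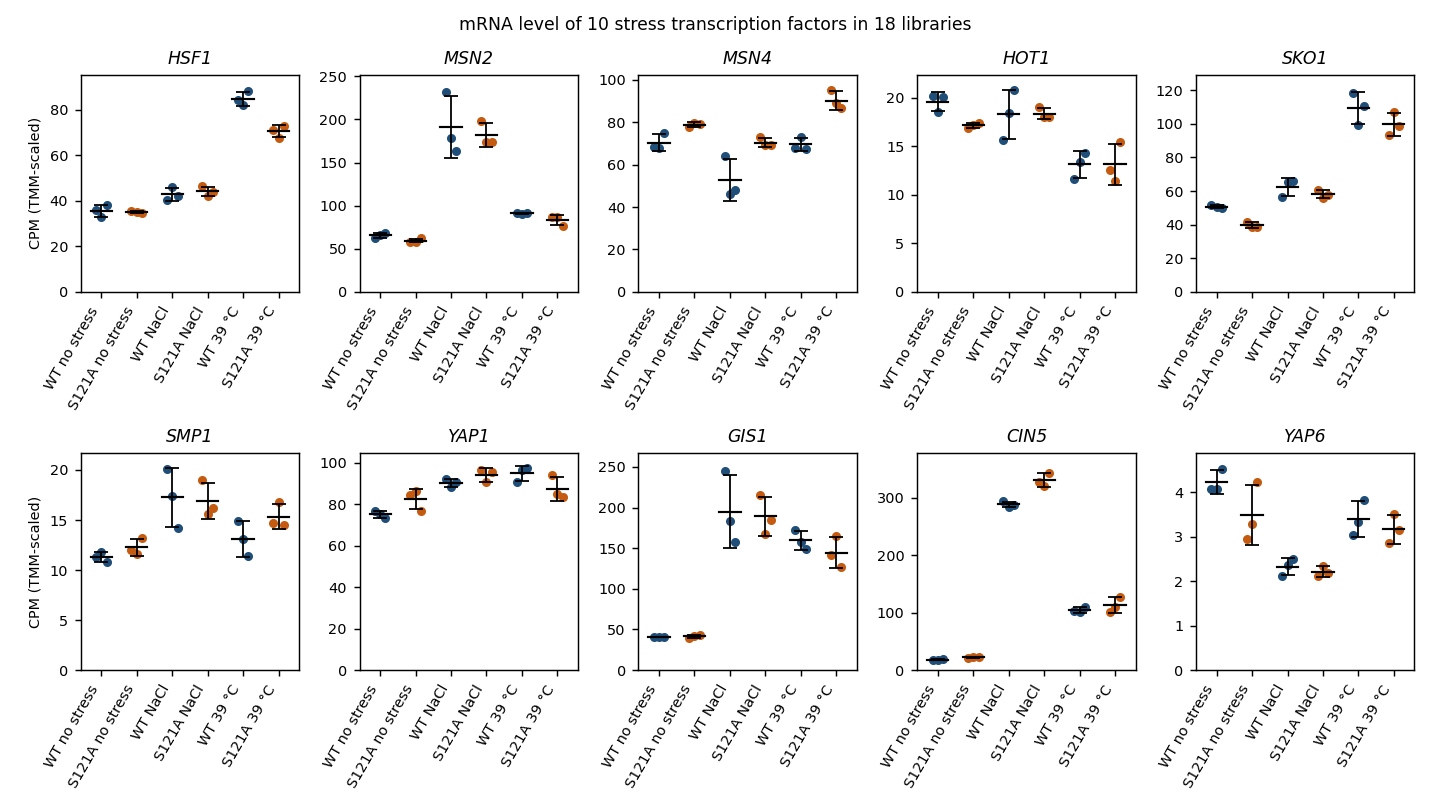
Level of each of the 10 transcription factor genes in every library, in CPM on a linear axis from 0, by group; points are libraries and bars are group means. CIN5, GIS1 and MSN2 are high in the NaCl groups, HSF1 and SKO1 are highest in the heated groups, and MSN4 in S121A lies above WT in each condition.

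The NaCl comparison asks which factor genes change within 15 min of osmotic stress. In WT cells 7 of the 10 genes rose and 2 fell, where 73.6% of all 6395 genes tested were called, 36.3% higher and 37.2% lower (edgeR quasi-likelihood test, Benjamini-Hochberg adjusted p under 0.05). CIN5, GIS1 and MSN2 rose most, and MSN4 and YAP6, the paralogs of MSN2 and CIN5, fell. In S121A cells 7 rose and 1 fell, where 71% of all genes were called, 35.8% higher and 35.3% lower. The median log2 fold change of the 10 was 0.28 in WT and 0.40 in S121A, against -0.01 for all genes in each genotype.

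CIN5 stood at 17.2, 18.1 and 19.2 CPM in the unstressed WT libraries and at 294, 285 and 287 CPM under NaCl. In S121A it stood at 21.9, 22.1 and 23.0 CPM and then at 328, 321 and 344 CPM. All stressed libraries lay more than an order of magnitude above all unstressed ones. The log2 fold change of CIN5 was 3.99 ± 0.09 in WT (SE, n = 3 per group, adjusted p = 3.66e-19), or 15.9-fold, and 3.89 ± 0.09 in S121A (adjusted p = 6.01e-19).

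GIS1, whose product is a zinc finger protein with a JmjC domain, stood at 40.4, 41.2 and 40.8 CPM in unstressed WT and at 244, 183 and 157 CPM under NaCl. In S121A it went from 39.6, 42.0 and 43.5 CPM to 215, 168 and 185 CPM. Groups did not overlap, and replicate 1 was the highest NaCl library in both genotypes. The log2 fold change was 2.26 ± 0.13 in WT and 2.18 ± 0.13 in S121A, and without replicate 1 of both NaCl groups, an alternative chosen after seeing the data, 2.06 and 2.08. Its paralog RPH1 rose by 1.098 in WT.

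MSN2 and MSN4 went opposite ways in WT. MSN2 stood at 62.4, 66.0 and 68.3 CPM in unstressed WT and at 231, 179 and 163 CPM under NaCl. MSN4 stood at 68.4, 67.9 and 74.9 CPM and then at 63.96, 46.1 and 48.3 CPM. All NaCl libraries lay above the unstressed ones for MSN2 and below them for MSN4, with replicate 1 the highest NaCl library for both. MSN2 rose by a log2 fold change of 1.54 ± 0.10 in WT and 1.61 ± 0.10 in S121A, and by 1.38 and 1.55 without replicate 1 of both NaCl groups. MSN4 fell by -0.42 ± 0.09 in WT (adjusted p = 0.000426). In S121A, where MSN4 went from 77.7, 79.8 and 79.2 CPM to 73.1, 69.2 and 69.1 CPM, its log2 value of -0.16 ± 0.09 did not pass (adjusted p = 0.117). It did pass without replicate 1 of both NaCl groups, at -0.19 (adjusted p = 0.0206), and with library totals alone as the scaling, at -0.45 (adjusted p = 0.000963).

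The 3 genes whose products Hog1 acts on behaved differently. SMP1, which encodes a MADS-box factor, ran from 10.8 to 11.8 CPM in unstressed WT and from 14.2 to 20.1 CPM under NaCl, a log2 fold change of 0.61 ± 0.12. In S121A its value was 0.46 ± 0.12, or 0.18 with library totals alone, which did not pass (adjusted p = 0.230). SKO1 rose by 0.30 ± 0.08 in WT, from 50.0 to 51.4 CPM without stress to 56.2 to 65.8 CPM, and by 0.56 ± 0.08 in S121A. The WT value did not pass with library totals alone, at 0.17 (adjusted p = 0.0551). HOT1 did not pass in either genotype, at -0.10 ± 0.11 (95% interval -0.33 to 0.13) in WT and 0.10 ± 0.11 in S121A.

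Of the remaining factor genes, HSF1 and YAP1 rose by small amounts that depended on the scaling. HSF1 rose by 0.27 ± 0.07 in WT and 0.33 ± 0.07 in S121A, and with library totals alone its values were 0.14 (adjusted p = 0.127) and 0.04 (adjusted p = 0.672). YAP1 rose by 0.27 ± 0.07 in WT, or 0.14 with library totals alone (adjusted p = 0.138). In S121A YAP1 was called higher at 0.19 ± 0.07, and with library totals alone its sign turned, to -0.10 (adjusted p = 0.282). That S121A call also ended without S121A no stress replicate 3 (adjusted p = 0.0886). YAP6 ran from 4.07 to 4.53 CPM in unstressed WT and from 2.11 to 2.49 CPM under NaCl. It fell by -0.86 ± 0.15 in WT and -0.66 ± 0.15 in S121A.

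The library totals matter because the median of all genes moved under them. With library totals alone the median log2 fold change over all genes was -0.14 for NaCl in WT, -0.30 for NaCl in S121A, -0.37 for heat in WT and -0.63 for heat in S121A, against values between -0.01 and 0.02 with TMM scaling. Values here are relative to the TMM scale unless library totals are named. On library totals the members split into 4 higher and 2 lower for NaCl in each genotype. For heat they split into 4 higher and 3 lower in WT, and 4 higher and 4 lower in S121A. Over all genes the WT heat split was 2595 higher and 2512 lower with TMM and 1760 and 3326 with library totals, and for S121A heat 2579 and 2536 against 1372 and 3899. For NaCl in S121A it was 2287 and 2256 against 1572 and 3139. CIN5, GIS1, MSN2 and SMP1 rose under NaCl in WT on both scales, and CIN5, GIS1, HSF1 and SKO1 rose under heat in both genotypes on both scales.

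**Figure D2:**
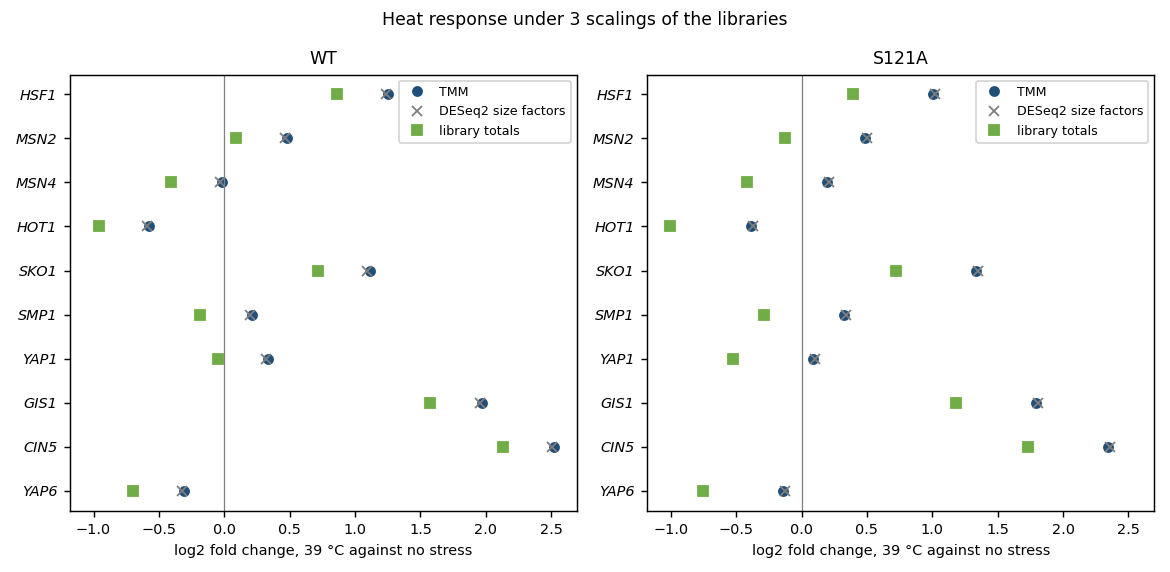
Log2 fold change of each factor gene in the heat response of each genotype with TMM scaling, with DESeq2 size factors and with library totals alone. Points are model estimates. CIN5 and GIS1 stay well above 0 with TMM scaling and with library totals. In heated S121A cells MSN2, MSN4, SMP1 and YAP1 lie above 0 with TMM scaling and below 0 with library totals.

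The heat comparison asks the same of 10 min at 39 °C. In WT cells 6 of the 10 genes rose and 1 fell, where 79.9% of all genes were called, 40.6% higher and 39.3% lower. In S121A cells 6 rose and 1 fell, where 80% were called, 40.3% higher and 39.7% lower. CIN5 and GIS1 again rose most, followed by HSF1 and SKO1, and HOT1 fell. Both stress comparisons share the unstressed libraries of each genotype. The median log2 fold change of the 10 was 0.41 in WT and 0.40 in S121A, against 0.02 and -0.01 for all genes.

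HSF1, on chromosome VII at 368753 to 371254, stood at 36.0, 32.7 and 38.2 CPM in unstressed WT and at 84.4, 82.2 and 88.2 CPM after heating. In S121A it went from 35.7, 35.1 and 34.8 CPM to 71.3, 67.8 and 72.9 CPM. The heated libraries lay above all others in both genotypes, and the heated S121A libraries lay below all heated WT libraries. The log2 fold change was 1.25 ± 0.07 in WT (adjusted p = 8.45e-13) and 1.01 ± 0.07 in S121A (adjusted p = 3.44e-11). With library totals alone the values were 0.86 and 0.39, both still called. A feature named YGL072C, next to HSF1 by its systematic number and absent from the reference table used here, held 8838 counts, or 21% of those of HSF1, and whether reads are shared between them was not tested.

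SKO1 stood at 51.4, 50.7 and 50.0 CPM in unstressed WT and at 119, 99.4 and 110.4 CPM after heating. In S121A it went from 41.6, 38.5 and 38.6 CPM to 93.4, 107 and 99.0 CPM. All heated libraries lay above all unstressed and all NaCl libraries. SKO1 rose by 1.11 ± 0.08 in WT and 1.33 ± 0.08 in S121A. HSF1 and SKO1 were also the closest pair among the 10 genes in their levels over the 6 groups, with a root mean square difference of 0.124 on the centred log2(CPM + 1) scale.

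CIN5 rose in heat by 2.52 ± 0.08 in WT, to 103, 100.4 and 110.3 CPM, and by 2.35 ± 0.08 in S121A, to 102, 111 and 128 CPM. GIS1 rose by 1.97 ± 0.13 in WT, to 173, 158 and 149 CPM, and by 1.79 ± 0.13 in S121A, to 142, 165 and 126 CPM. Heated libraries of both genes lay above all unstressed libraries. For CIN5 they also lay below all NaCl libraries, while for GIS1 the heated and NaCl WT libraries overlapped.

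MSN2 was called higher in heat at 0.48 ± 0.10 in WT and 0.49 ± 0.10 in S121A. With library totals alone these values were 0.09 (adjusted p = 0.499) and, with the opposite sign, -0.12 (adjusted p = 0.326). MSN4 did not pass in heat, at -0.02 ± 0.09 in WT (adjusted p = 0.856) and 0.19 ± 0.09 in S121A (adjusted p = 0.0599). The S121A value of MSN4 passed with DESeq2's Wald test, at 0.21 (adjusted p = 0.0324), and with library totals alone MSN4 was called lower in both genotypes, at -0.41 in WT (adjusted p = 0.0021) and -0.42 in S121A (adjusted p = 0.00156). HOT1 fell by -0.58 ± 0.11 in WT, from 18.5 to 20.2 CPM down to 11.6 to 14.4 CPM, and by -0.38 ± 0.11 in S121A, and on library totals by -0.96 and -1.004. YAP1 was called higher in WT at 0.34 ± 0.07, and at -0.05 with library totals alone it was not called (adjusted p = 0.574). In S121A YAP1 did not pass at 0.09 ± 0.07 (adjusted p = 0.238), and was called lower on library totals at -0.53 (adjusted p = 9.39e-06). SMP1 was called higher in S121A at 0.32 ± 0.12 (adjusted p = 0.0216), a call that turned to -0.29 (adjusted p = 0.0511) with library totals alone. It also ended without S121A heat replicate 2, S121A no stress replicate 1 or S121A no stress replicate 2 (adjusted p of 0.0957, 0.0562 and 0.0741). YAP6 did not pass in heat, at -0.31 ± 0.15 in WT (adjusted p = 0.0605) and -0.14 ± 0.15 in S121A (adjusted p = 0.388). On library totals YAP6 was called lower in both genotypes, at -0.70 and -0.76.

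**Figure D3:**
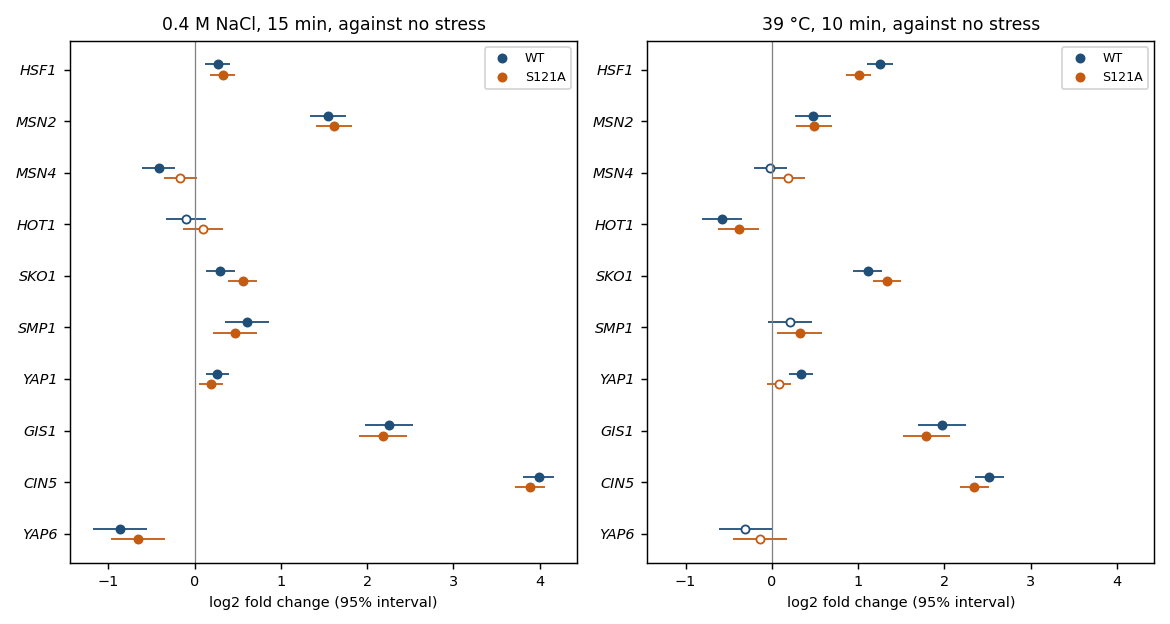
Log2 fold change of each factor gene against unstressed cells for NaCl and heat in each genotype; bars are 95% intervals from the edgeR model and filled points have an adjusted p under 0.05. CIN5 has the largest value in each comparison (3.99 and 2.52 in WT, 3.89 and 2.35 in S121A), and MSN4 and YAP6 lie below 0 for NaCl.

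Set directly against each other, the heat and NaCl treatments differed in which factor genes were higher. The heat exposure was also shorter than the NaCl exposure, and the part of exposure time in these differences was not tested. In WT 4 of the 10 were higher in heat and 4 lower, where 66.1% of all genes were called, 32.9% higher and 33.2% lower. In S121A 4 were higher and 4 lower, where 64.2% were called, 30.6% higher and 33.6% lower. On library totals 2 were higher and 6 lower in each genotype. On that scale the median response of all genes was also lower for heat than for NaCl. HSF1 was higher in heat by 0.99 ± 0.07 in WT and 0.68 ± 0.07 in S121A, and SKO1 by 0.81 ± 0.08 and 0.78 ± 0.08. CIN5 was lower in heat by -1.47 ± 0.08 and -1.54 ± 0.08, MSN2 by -1.06 ± 0.10 and -1.13 ± 0.10, and HOT1 by -0.48 ± 0.11 in each genotype. These 5 genes kept their calls on library totals in both genotypes. MSN4 was called higher in heat at 0.40 in WT and 0.36 in S121A, and YAP6 at 0.55 and 0.51, and with library totals alone none of these 4 values passed (0.14, 0.04, 0.30 and 0.19). SMP1 was called lower in heated WT at -0.40, and the call ended without WT NaCl replicate 1 (adjusted p = 0.0627) or WT heat replicate 3 (adjusted p = 0.0504). GIS1 was called lower in heated S121A at -0.39, and the call ended without S121A NaCl replicate 1 (adjusted p = 0.0716) or S121A heat replicate 3 (adjusted p = 0.0627).

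The genotype comparisons ask whether the H2A change alters the level of these factors. The members called were SKO1, CIN5, MSN4 and HSF1, each in at least 1 condition. Without stress 1 was higher and 1 lower in S121A, where 23.1% of all genes were called, 9.05% higher and 14.1% lower. Under NaCl 1 was higher, where 23.8% of all genes were called, 14.6% higher and 9.19% lower. Under heat 1 was higher and 1 lower, where 33.7% were called, 19.5% higher and 14.2% lower. On library totals the unstressed split was 3 higher and 0 lower. Over all genes the unstressed split was 579 higher and 901 lower with TMM and 1144 and 232 with library totals, where the median of all genes stood at 0.15.

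SKO1 was lower and CIN5 higher in unstressed S121A. SKO1 stood at 41.6, 38.5 and 38.6 CPM in S121A, below all WT libraries at 51.4, 50.7 and 50.0 CPM. SKO1 differed by -0.36 ± 0.08 on the log2 scale (adjusted p = 0.00287). On library totals its value of -0.19 did not pass (adjusted p = 0.0900). CIN5 in all 3 S121A libraries, at 21.9 to 23.0 CPM, lay above WT at 17.2 to 19.2 CPM, a difference of 0.30 ± 0.08 (adjusted p = 0.0113). Without WT no stress replicate 1 the call ended (adjusted p = 0.0661). Under NaCl the CIN5 libraries also did not overlap, at 285 to 294 CPM in WT and 321 to 344 CPM in S121A, and the difference of 0.20 ± 0.08 did not pass (adjusted p = 0.0644). With the replicate number as a block over all libraries CIN5 passed, at 0.20 (adjusted p = 0.0369), which made 2 members called, and with the NaCl libraries alone and the block it did not (adjusted p = 0.0855), an alternative chosen after seeing the data.

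MSN4 was higher in S121A under both stresses. Under NaCl it stood at 73.1, 69.2 and 69.1 CPM in S121A and at 63.96, 46.1 and 48.3 CPM in WT, a log2 difference of 0.42 ± 0.09 (adjusted p = 0.00237). Under heat it stood at 95.04, 89.1 and 86.5 CPM in S121A and at 68.0, 73.3 and 67.3 CPM in WT, a difference of 0.38 ± 0.09 (adjusted p = 0.00378). The genotypes did not overlap in either condition, and both calls held on library totals, at 0.43 and 0.32. Without stress the S121A libraries, at 77.7 to 79.8 CPM, also lay above WT at 67.9 to 74.9 CPM, and the difference of 0.16 ± 0.09 did not pass (adjusted p = 0.216), but passed with library totals alone, at 0.33 (adjusted p = 0.0341), and with the unstressed groups fitted alone, at 0.21 (adjusted p = 0.00415). HSF1 was lower in heated S121A by -0.26 ± 0.07 (adjusted p = 0.00582), and by -0.32 on library totals. It differed by -0.02 without stress (95% interval -0.16 to 0.13) and by 0.04 under NaCl (-0.10 to 0.19), neither passing. HOT1, SMP1, YAP1, GIS1, MSN2 and YAP6 did not pass in any of the 3 conditions, with log2 differences between -0.27 and 0.23 on the TMM scale. YAP1 without stress passed on library totals, at 0.30 (adjusted p = 0.0125), and with the unstressed groups fitted alone, at 0.18 (adjusted p = 0.0120).

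**Figure D4:**
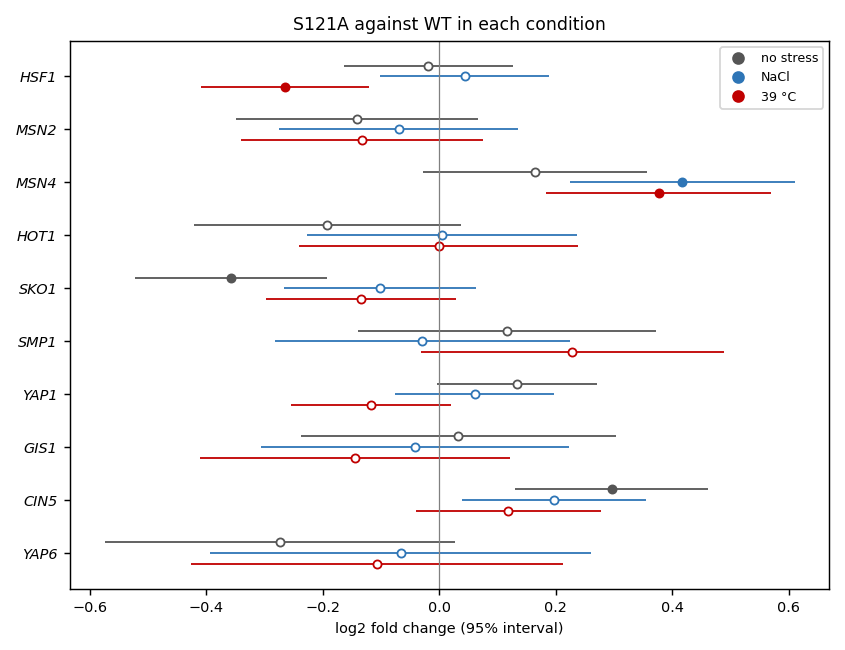
Log2 difference of each factor gene between S121A and WT in each condition; bars are 95% intervals from the edgeR model and filled points have an adjusted p under 0.05. Filled points are SKO1 at -0.36 and CIN5 at 0.30 without stress, MSN4 at 0.42 under NaCl, and HSF1 at -0.26 and MSN4 at 0.38 under heat.

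The ratio of 2 paralogs within a library does not depend on how libraries are scaled. The MSN2 to MSN4 ratio per coding length was 0.816, 0.869 and 0.816 in unstressed WT and 0.671, 0.651 and 0.700 in unstressed S121A. Under NaCl it was 3.24, 3.47 and 3.02 in WT and 2.43, 2.25 and 2.26 in S121A. After heating it was 1.21, 1.11 and 1.22 in WT and 0.820, 0.872 and 0.787 in S121A. So MSN2 exceeded MSN4 under NaCl in both genotypes and after heating in WT, and every S121A library lay below every WT library of its condition. The mean log2 difference, S121A minus WT, was -0.44 over the 3 conditions. The CIN5 to YAP6 ratio averaged 5.59 ± 0.165 in unstressed WT, 162 ± 16.3 under NaCl and 40.1 ± 3.40 after heating (SD, n = 3), and 8.47 ± 1.33, 194 ± 14.9 and 46.6 ± 5.82 in S121A. Its mean log2 difference was 0.35 over the 3 conditions, and the genotypes overlapped under NaCl and under heat. The ratios were chosen for display after the values had been seen, so no p-value is given for them. Whether reads that fit both paralogs were shared or dropped is unknown here.

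The response differences ask whether S121A changed the size of a stress response. For NaCl 0 of the 10 genes passed in edgeR, 1 had an unadjusted p under 0.05 and 0 passed in DESeq2, where 8.35% of all genes were called, 6.82% higher and 1.53% lower. For heat 0 passed in edgeR, 2 had an unadjusted p under 0.05 and 1 passed in DESeq2, where 22.6% of all genes were called, 15.5% higher and 7.08% lower. The NaCl value nearest to passing was that of SKO1, whose response was larger in S121A by 0.26 ± 0.11 (adjusted p = 0.190). MSN4 had a NaCl difference of 0.25 ± 0.13 (adjusted p = 0.287), and without WT NaCl replicate 1 it passed, at 0.42 (adjusted p = 0.00754). Without replicate 1 of both NaCl groups it was 0.39 (adjusted p = 0.0192). In heat the values nearest to passing were those of YAP1 at -0.25 ± 0.09 (adjusted p = 0.0579) and HSF1 at -0.25 ± 0.10 (adjusted p = 0.0767). YAP1 passed in DESeq2, at -0.22 (adjusted p = 0.0459). With library totals alone, where the median of all genes was -0.17, YAP1, HSF1 and CIN5 passed, at -0.48, -0.47 and -0.40. The 95% intervals of the 10 NaCl differences lay between -0.51 and 0.65, and those of the heat differences between -0.56 and 0.61.

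Genes that these factors are known to control were followed as lists chosen with earlier results of these data known, so their directions are a description. In WT under NaCl all 21 Msn2 and Msn4 targets rose, their median log2 value being 4.59, among them SPI1 at 6.70 ± 0.12 and RTN2 at 6.11 ± 0.11. All 5 Hot1 targets rose, with a median of 6.32, among them FMP48 at 6.79 ± 0.13 and the glycerol phosphatase gene HOR2 at 5.52 ± 0.09, while HOT1 itself did not pass. All 6 Sko1 targets rose, with a median of 0.96, led by GRE2 at 5.21 ± 0.10 and the sodium pump gene ENA1 at 3.45 ± 0.11. Of 20 Hsf1 targets 16 rose and 2 fell (median 1.048), of 16 Yap1 targets 9 rose and 5 fell (median 0.28), and of 4 Gis1 and Rph1 targets 4 rose (median 1.55). The median of all genes was -0.01, and 36.3% of all genes were called higher and 37.2% lower. AHP1 and GLR1 stand in both the Sko1 and the Yap1 list.

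In heated WT 40.6% of all genes were called higher and 39.3% lower, with a median of 0.02. All 20 Hsf1 targets rose there, with a median of 4.22, among them the sorting factor gene BTN2 at 6.55 ± 0.13. All 21 Msn2 and Msn4 targets rose, with a median of 5.14, including SOL4 at 6.33 ± 0.12. All 5 Hot1 targets rose with a median of 2.80, and were lower than under NaCl in 5 of 5 cases, with a median of -3.31. The heat exposure was shorter than the NaCl exposure, and the part of exposure time in that difference was not tested. All 6 Sko1 targets rose (median 1.15), Yap1 targets rose in 9 of 16 cases and fell in 5 (median 0.49), and Gis1 and Rph1 targets rose in 3 of 4 cases and fell in 1, the Hsp70 gene SSA3 reaching 5.43 ± 0.10. On library totals each of these list counts in WT was the same except for Yap1 targets, at 8 higher and 6 lower under NaCl and 8 higher and 7 lower in heat.

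**Figure D5:**
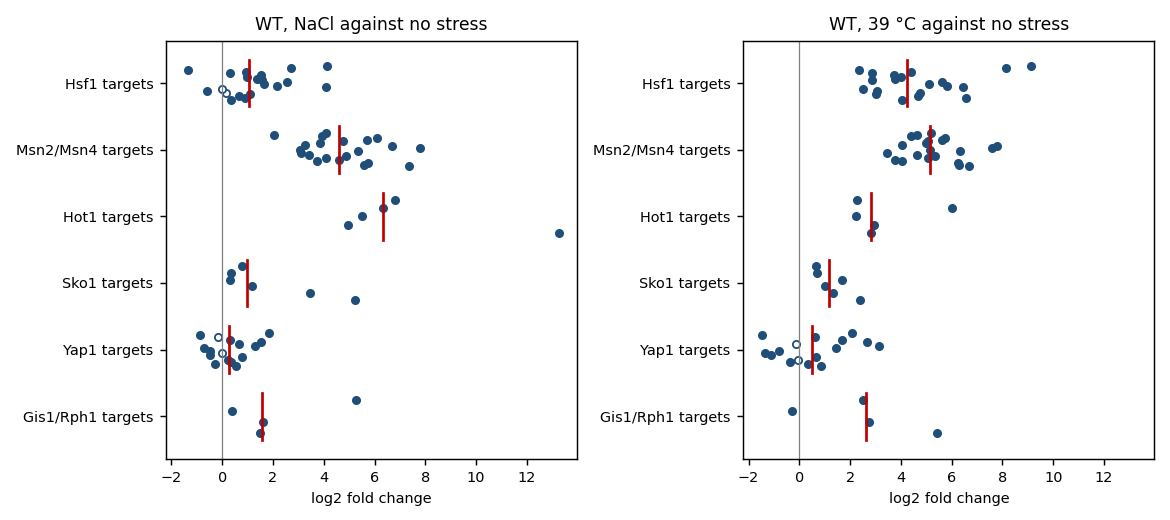
Log2 fold change of each target gene, by factor, for the stress responses; points are genes, filled where the adjusted p is under 0.05, and the red line is the list median. Msn2 and Msn4 targets lie above 0 in both stresses, Hsf1 targets are higher in heat (median 4.22 in WT) than under NaCl (1.048), and Hot1 targets are higher under NaCl (6.32) than in heat (2.80).

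Between genotypes the target lists moved unevenly. Of all genes, 9.05% were higher and 14.1% lower in S121A without stress, 14.6% and 9.19% under NaCl, and 19.5% and 14.2% under heat. Hsf1 targets were higher in unstressed S121A in 8 of 20 cases and lower in 0, and under NaCl in 16 of 20 and lower in 0, while HSF1 itself did not pass in either condition. BTN2 was higher by 1.00 ± 0.10 without stress and 1.28 ± 0.10 under NaCl, and the Hsp40 gene YDJ1 by 0.83 ± 0.08 under NaCl. In heated S121A, where HSF1 was lower, 1 Hsf1 target was higher (SSA1, 0.27 ± 0.09) and 4 lower, among them BTN2 at -0.47 ± 0.10. On library totals the Hsf1 counts were 15 and 0, 17 and 0, and 1 and 7. Msn2 and Msn4 targets were higher in 7 and lower in 8 of 21 cases without stress (9 and 5 on library totals), 1 and 6 under NaCl, and 2 and 8 under heat. Sko1 targets were higher in 0 and lower in 2 of 6 without stress, in 0 and 0 under NaCl, and in 0 and 1 under heat, against 1 and 1, 2 and 1, and 0 and 2 on library totals.

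Genes for proteins that regulate the 10 factors were followed in the same way. Of 17 regulators, 12 rose and 4 fell under NaCl in WT and 13 rose and 2 fell in heat (9 and 5 on library totals), where 73.6% and 79.9% of all genes were called. The kinase gene YAK1, whose product phosphorylates Hsf1 and Msn2, rose by 2.69 ± 0.08 and 2.97 ± 0.08. Of the genes for catalytic subunits of protein kinase A, TPK2 rose by 2.43 ± 0.09 under NaCl and 2.67 ± 0.09 in heat, and TPK3 fell by -1.88 ± 0.12 in heat. In unstressed S121A the kinase gene HOG1 was lower by -0.43 ± 0.08 and the protein kinase A inhibitor gene BCY1 by -0.45 ± 0.09, and both stayed lower on library totals, at -0.26 and -0.29. TUP1, the corepressor gene, was 0.54 ± 0.08 higher in salt-treated and 0.77 ± 0.08 higher in heated S121A cells. Without stress the TUP1 mean was also higher in S121A, at 367 CPM against 289 CPM in WT. The means of HOG1 and BCY1 were also lower in S121A under NaCl, at 336 against 425 CPM and 545 against 690 CPM. After heating they were 376 against 394 CPM and 734 against 806 CPM. Of 17 related DNA-binding protein genes 9 rose and 7 fell under NaCl in WT, and 10 rose and 5 fell in heat (8 and 6 on library totals). The zinc finger gene USV1 rose by 4.21 ± 0.09 and 3.35 ± 0.09, and MGA1, which encodes a protein with an Hsf-like domain, by 4.41 ± 0.12 and 4.05 ± 0.12. HMS2, which encodes another such protein, fell by -1.65 ± 0.10 and -3.76 ± 0.12. The related genes SFL1, at -0.89 and -0.996, and SKN7, at -0.69 and -0.66, also fell, and were named after their values were seen. CAD1, the paralog of YAP1, rose by 0.61 and 1.12, and RLM1, the paralog of SMP1, fell by -0.48 under NaCl and rose by 1.00 in heat.

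The 2 genes closest to each factor gene in their 6 group means were found on the centred log2(CPM + 1) scale among 4901 genes (4902 for YAP6) of at least 10 CPM, with the root mean square difference as the measure. Nearest to CIN5 were YML131W at 0.215 and YHR022C at 0.305, where the median over all candidate genes was 1.63. These differences grow with a gene's own range, and the same median was between 0.402 and 1.01 for the other 9 genes. Nearest to MSN2 were MSS11 at 0.0957 and VPS36 at 0.0985, nearest to GIS1 YBL086C at 0.0886 and NVJ1 at 0.0898, and nearest to HSF1 MSD1 at 0.0518 and SND1 at 0.0584. SKO1 was closest to ARC35 and BMH1, MSN4 to GCV3 and TIR4, HOT1 to HOM2 and GUS1, SMP1 to IRS4 and SMX2, YAP1 to REH1 and NTG2, and YAP6 to LCD1 and HDA1, at 0.0309 to 0.0757.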

How the data were processed

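Poly(A) RNA was measured in 18 libraries, and the labels place 3 of them in each of 6 groups. Every column matched a sample. The deposited values are raw counts per gene, which the authors did not normalize. Per the submitters' processing notes, the tools were DESeq2 1.10.1, featureCounts 1.4.6-p5 and TopHat2 2.0.1, and the genome was R64 (sacCer3). Per the labels' protocols, RNA was extracted with hot phenol and sequenced paired-end from a stranded kit. The handling of strand and of multiply mapped reads in counting is unknown here.

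Counts were filtered with filterByExpr, which kept 6395 features, scaled by TMM and fitted in edgeR 4.0.16 (R 4.3.3) with a robust quasi-likelihood model of 1 mean per group over all 18 libraries. P-values were Benjamini-Hochberg adjusted over all genes, two-sided, and called under 0.05. Adjusted p-values come from this model where no other is named. CPM, log2 fold changes, their standard errors (SE) and 95% intervals were computed here. The script was tested on simulated data. Counts of 3 and CPM floors cover counting error only. DESeq2 1.42.0 was an alternative, as were library totals, DESeq2 size factors, no filter, the compared groups alone, a replicate block and each library left out. Members, lists and tests were chosen with earlier results of these data known. Named genes were all members, up to 4 of the largest called changes per list at 10 CPM or more, the 2 nearest genes per member and paralogs. Sequences are from the R64 genome of RefSeq.

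Replicate numbers are shared by all groups. Same-numbered libraries deviated together only in S121A against WT under NaCl (correlations of 0.42, 0.20 and 0.40 across 4902 genes), so the blocked value is given there. No batch label was given.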

Additional observations from a re-analysis of the deposited data

How the results depend on the processing

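Of the 110 values of the 10 genes over 11 comparisons, 69 kept direction and side of the threshold with library totals alone, 105 with DESeq2 size factors, 105 with DESeq2's Wald test, 105 with the compared groups alone, 107 with the replicate block and 110 with no filter on low counts. With 1 library left out, and each value counted once for each library whose removal affects its groups, 736 values did, 24 changed sign, 11 gained a call and 9 lost one.

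The number of members called for the heat response difference went from 0 to 3 with library totals and to 1 with DESeq2's Wald test. For S121A against WT under NaCl it went from 1 to 2 with the replicate block, and for S121A against WT without stress from 2 to 4 with the compared groups alone, MSN4 and YAP1 being added. For the NaCl response difference it went from 0 to 1 without replicate 1 of both NaCl groups, chosen after seeing the data. With 1 library left out the counts ran from 1 to 2 (S121A against WT without stress), 0 to 1 (NaCl response difference) and 0 to 2 (heat response difference). The causes were not tested.

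Log2 values that changed sign with library totals were, for heat in WT, SMP1 at -0.18 and YAP1 at -0.051, for NaCl in S121A, HOT1 at -0.19 and YAP1 at -0.10, and for heat in S121A, MSN2 at -0.12, MSN4 at -0.42, SMP1 at -0.29 and YAP1 at -0.53. For S121A against WT without stress they were HSF1 at 0.15 and MSN2 at 0.028, and for heat against NaCl in WT YAP1 at -0.19. For the NaCl response difference they were HSF1 at -0.10 and MSN2 at -0.088, and for the heat response difference MSN2 at -0.21, MSN4 at -0.011, HOT1 at -0.043, SMP1 at -0.10 and YAP6 at -0.060. HOT1 changed sign under NaCl and under heat in S121A against WT with DESeq2 size factors (-0.015 and 0.025) and with the Wald test (-0.016 and 0.023), and HSF1 without stress with the compared groups alone (0.028). Without replicate 1 of both NaCl groups, signs changed in S121A against WT under NaCl for HSF1 (-0.032), MSN2 (0.026), HOT1 (-0.12), SMP1 (0.0045) and GIS1 (0.052), and in the NaCl response difference for HSF1 (-0.012) and GIS1 (0.020). With 1 library left out MSN4 for heat in WT ran from -0.058 to 0.027, YAP6 for heat in S121A from -0.25 to 0.024, HSF1 in S121A against WT without stress from -0.079 to 0.032, and HOT1 under heat from -0.13 to 0.088. Under NaCl MSN2 ran from -0.17 to 0.091, HOT1 from -0.10 to 0.11, SMP1 from -0.15 to 0.095 and GIS1 from -0.17 to 0.15, in the NaCl response difference MSN2 from -0.030 to 0.23 and GIS1 from -0.21 to 0.12, and in the heat response difference MSN2 from -0.024 to 0.073. Of the values that changed sign, those called on the TMM scale were YAP1 for heat in WT and for NaCl in S121A, and MSN2 and SMP1 for heat in S121A, all with library totals alone.

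Outside S121A against WT under NaCl, at least 1 same-numbered pair correlated at or below 0.1, and in no comparison did every library correlate best with its own number. There the block added YAP6 for heat in WT (-0.32, adjusted p = 0.0330) and GIS1 for heat against NaCl in WT (-0.28, adjusted p = 0.0441) and ended no call. YAP6, the least abundant member, rested on 95 to 284 counts per library.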
